A study of Homo sapiens with 12 samples.

Results

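The 10 genes described here encode the epsins (*EPN1*, *EPN2* and *EPN3*), the clathrin chains (*CLTA*, *CLTB* and *CLTC*), subunits of the AP-2 adaptor (*AP2A1*, *AP2B1* and *AP2M1*) and dynamin (*DNM2*). They were chosen by symbol from the 58302 genes of the count table, and the set was selected on a known value, the higher *EPN3* level of MIB1 KO cells with BMP-on. RNA-seq was performed on 12 libraries of MIB1-iKO cells, a single-cell clone of the lung cancer cell line NCIH838 that carries a *MIB1* guide RNA and Cas9 induced by doxycycline (Dox). For 3 days all cells were kept in LDN (50 nmol/L), which blocks BMP receptors, and they either received Dox at 0.5 μg/mL (MIB1 KO) or did not (MIB1 WT). BMP4 (10 ng/mL) was then added to all of them for 24 hours, and LDN was either kept (BMP-off) or replaced by DMSO (BMP-on), which gave 4 groups of 3 replicates. Dox was present in all KO and in no WT libraries, so effects of Dox or Cas9 and effects of MIB1 loss cannot be told apart. The labels do not say that replicates came from separate cultures, and p-values measure only the spread between these libraries, which may be technical.

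Clathrin-mediated endocytosis starts when the AP-2 complex binds phosphoinositides and the tails of membrane receptors and recruits clathrin, whose heavy and light chains assemble into a cage around the growing pit. Epsins insert a helix into the membrane, bind AP-2 and clathrin, and recognize ubiquitin on cargo through ubiquitin-interacting motifs, while dynamin cuts the neck of the pit. MIB1 is a ubiquitin ligase best known for marking Notch ligands, whose uptake by the signal-sending cell requires epsin.

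Library totals ranged from 19124010 to 29498000 counts. *MIB1* ranged from 31.0 to 34.4 CPM (counts scaled to the TMM-adjusted library total) in the KO libraries and from 144 to 176 CPM in the WT libraries, so the transcript was reduced and not absent. Of 6 epithelial markers, 5 were above 1 CPM in all libraries, whereas *KRT19* did not exceed 0.104 CPM. The lung markers *NKX2-1*, *SFTPB* and *SFTPC* were near 0 and *NAPSA* did not exceed 1.03 CPM. The leukocyte marker *PTPRC* had no count. Of the fibroblast markers, *COL1A1* ranged from 11 to 41.0 CPM, whereas *COL3A1* and *DCN* did not exceed 0.348 and 0.117 CPM. The endothelial markers *PECAM1* and *CDH5* did not exceed 0.757 and 0.503 CPM. The relation between a gene's GC content and its deviation from the group mean was strongest in KO BMP-off replicate 2 (Spearman's rho −0.603 across 17090 genes, which are not independent replicates) and replicate 3 (rho 0.586), with opposite signs. Fold changes of GC-rich genes are therefore also given with a GC correction. In bulk RNA, fewer cells that express a gene and less RNA per cell cannot be told apart.

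Per transcript length, *AP2M1*, the cargo-binding mu subunit of AP-2, had the highest level of the 10 genes. Its RPKM (reads per kilobase of gene model, scaled to library size, as the authors deposited them) had a median of 442 over the 12 libraries and ranged from 388 to 517. The light chain *CLTA* followed with a median of 112 RPKM (108 to 119) and the heavy chain *CLTC* with 76.5 (71.4 to 84.0). The beta subunit *AP2B1* had a median of 60.7 RPKM (53.7 to 68.4), the second light chain *CLTB* 50.9 (34.6 to 57.1) and *DNM2*, the broadly expressed dynamin, 50.9 (44.7 to 53.5). The ranges of *CLTB* and *DNM2* overlapped, as did those of *CLTB* and *AP2B1*, so that these neighbours were not separated by the spread between libraries. The alpha subunit *AP2A1* had a median of 21.1 RPKM (13.3 to 24.0).

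The epsins were the lowest of the set per length. *EPN2* had a median of 14.1 RPKM (11.3 to 15.3), *EPN1* of 7.53 (4.49 to 8.64) and *EPN3*, the epsin first described in epithelial cells, of 0.103 (0.0637 to 0.301). The order of *EPN1* and *EPN2* depended on length, since on the CPM scale the median was 123 for *EPN1* and 77.9 for *EPN2*. The RPKM of *EPN1* corresponds to a gene model of 16.4 kb, and its annotated canonical transcript has 16219 bases. *EPN3* differed from the others by scale, with 6 to 27 counts per library against at least 970 counts in any library for the other members.

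**Figure D1:**
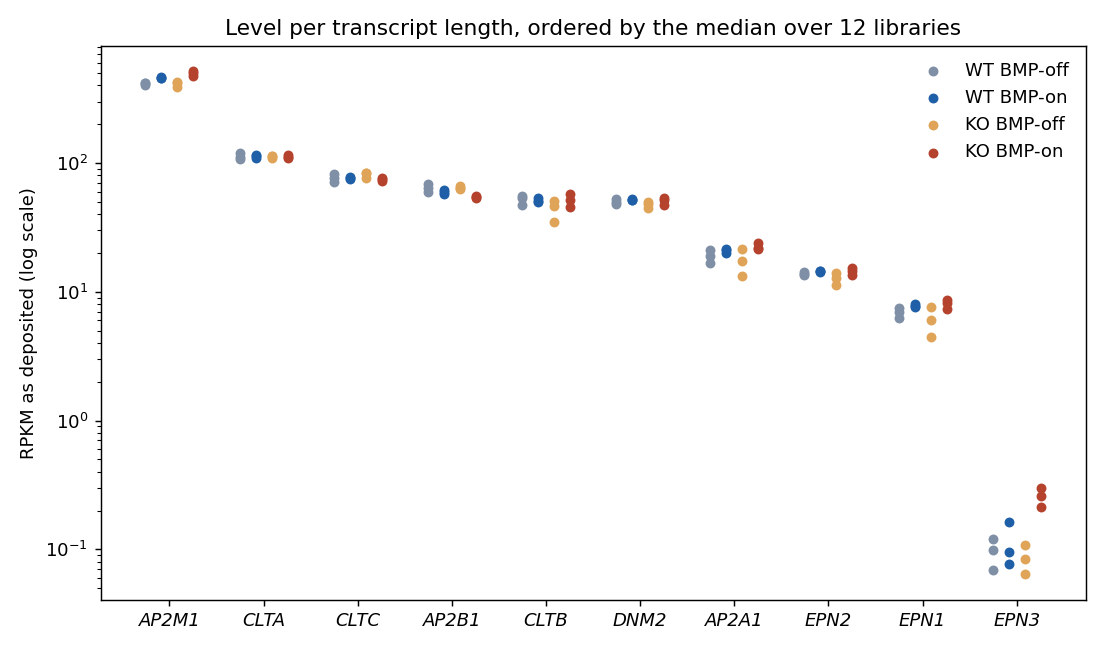
RPKM of each gene in the 12 libraries (points, coloured by group) on a log scale, with genes ordered by their median. *AP2M1* lies at 388 to 517 RPKM and *EPN3* at 0.0637 to 0.301, with the remaining genes between them.

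All 10 members passed the filter on low counts and entered the fit of 17188 genes by edgeR's quasi-likelihood test, with p-values adjusted over all genes by the Benjamini-Hochberg method. A call required an adjusted p no higher than 0.05. Because *EPN3* was selected on KO against WT with BMP-on, its values in that comparison, in both BMP responses and in the interaction are descriptions, and its only test is KO against WT with BMP-off.

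*EPN3* was highest in KO cells with BMP-on. Its counts there were 27, 23 and 22 in replicates 1, 2 and 3, with exact 95% Poisson intervals of 17.8 to 39.3, 14.6 to 34.5 and 13.8 to 33.3 that cover counting error only. In WT cells with BMP-on the counts were 9, 9 and 18 (4.12 to 17.1, 4.12 to 17.1 and 10.7 to 28.4), in WT cells with BMP-off 13, 9 and 6, and in KO cells with BMP-off 12, 8 and 6. The WT BMP-on replicate 3 was thus the closest to the KO BMP-on group, and its Poisson interval overlapped those of all 3 KO BMP-on libraries.

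On the CPM scale *EPN3* averaged 1.03 ± 0.173 (SD, n = 3) in KO cells with BMP-on, against 0.445 ± 0.178 in WT cells with BMP-on, 0.377 ± 0.0979 in WT cells with BMP-off and 0.331 ± 0.0836 in KO cells with BMP-off. The lowest KO BMP-on library (0.855 CPM) lay above the highest of the other groups (0.647 CPM), and the other 3 groups overlapped each other. The fitted difference of KO from WT with BMP-on, used to select the gene, was 2.27-fold, and the fitted BMP response was 3.00-fold in KO cells and 1.16-fold in WT cells. On the log2 scale these values were 1.18, 1.59 and 0.21. With the GC correction they were 1.10, 1.26 and 0.10, and the longest transcript of *EPN3* contains 61.5% GC. With each library left out in turn, the log2 difference of KO from WT with BMP-on ranged from 0.96 to 1.56. In KO against WT with BMP-off, the comparison the selection did not use, the log2 fold change was −0.19 ± 0.39 (SE; edgeR adjusted p = 0.876), with a 95% interval from −1.02 to 0.64.

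*EPN3* lies on chromosome 17 from 50532682 to 50543750 on the plus strand (GRCh38, GENCODE v44). Its last 693 bases also belong to *SPATA20*, which lies on the same strand from 50543058 to 50555852, and a long noncoding RNA overlaps it on the other strand. Whether reads in the shared bases were counted for *EPN3* is not given in the sources used here. *SPATA20* had 33.4, 41.3 and 41.6 CPM in WT BMP-off, 44, 43.7 and 45.0 CPM in WT BMP-on, 34.9, 24.7 and 39.7 CPM in KO BMP-off, and 53.0, 46.3 and 47.9 CPM in KO BMP-on libraries. In KO cells with BMP it rose by 0.57 ± 0.14 on the log2 scale (edgeR adjusted p = 0.0154), and its part in the *EPN3* counts was not tested. *SPATA20* was not 1 of the genes named by the rule and was chosen after its values were seen.

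Among 12828 genes with a mean of at least 50 counts, those whose log2 CPM followed *EPN3* most closely over the 12 libraries were *ATP6V0E1*, a subunit of the vacuolar proton pump (Pearson's r = 0.933), *PPP1R3C*, a glycogen-targeting subunit of protein phosphatase 1 (0.916), *TFG*, a protein of endoplasmic reticulum exit sites (0.916), the noncoding RNA *BOLA3-DT* (0.901) and *SMURF2*, a ubiquitin ligase of the TGF-β family pathways (0.898). These correlations are descriptions, since they were the highest of many, share the libraries and rest on the few counts of *EPN3*.

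**Figure D2:**
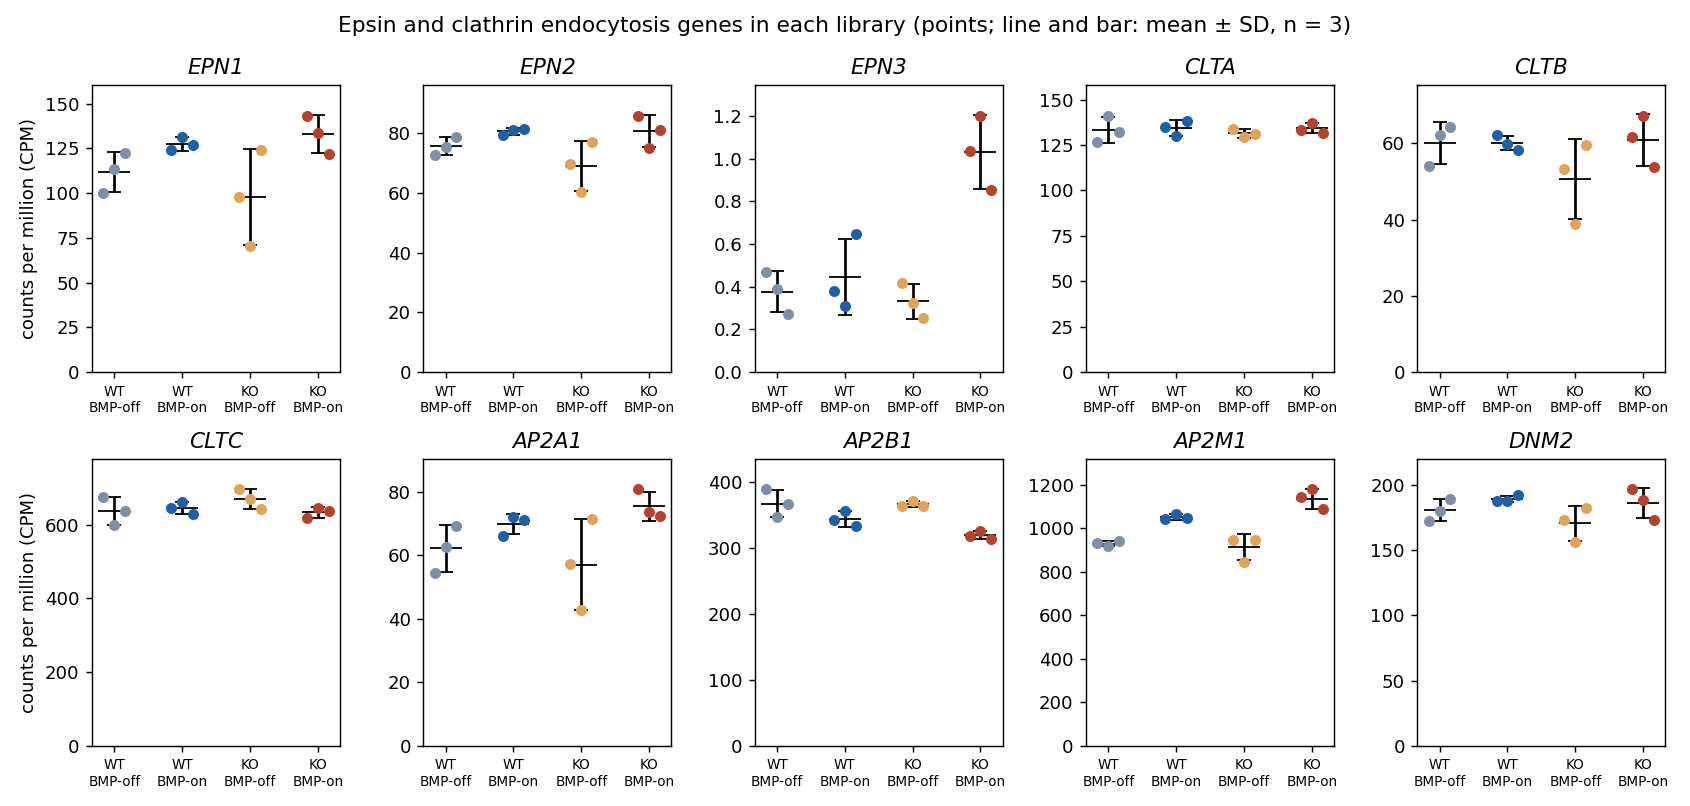
CPM of each gene in every library (points) with the group mean and SD (line and bar, n = 3), on axes that start at 0. *EPN3* in KO BMP-on lies at 0.855 to 1.20 CPM, above the other groups, and *AP2M1* in both BMP-on groups lies above its BMP-off libraries.

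The other epsins were not called in KO against WT. *EPN1*, the most abundant epsin on the CPM scale, had 124, 131 and 127 CPM in WT BMP-on and 143, 134 and 122 CPM in KO BMP-on libraries, and these groups overlapped. The log2 difference of KO from WT with BMP-on was 0.06 ± 0.16 for *EPN1* (edgeR adjusted p = 0.928) with a 95% interval from −0.29 to 0.42. For *EPN2* it was 0.00 ± 0.07 (adjusted p = 0.992) with an interval from −0.15 to 0.16.

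With BMP-off, no member was called between KO and WT, where edgeR called 0.0407% of all genes. The members' median log2 fold change was −0.10, against −0.01 over all genes. An unadjusted p under 0.05 was found for 0 of the 10 and for 1757 of all 17188 genes tested. With only 10 genes, a count of 0 is not read as a difference from that share. DESeq2 and limma-voom called no member either. Of the 10, only *CLTC* had a positive estimate (0.07). The lowest estimate was that of *CLTB* (−0.25 ± 0.14, adjusted p = 0.553), whose KO BMP-off libraries had 53.2, 39.0 and 59.5 CPM against 54.0, 62.2 and 64.3 CPM in WT. Replicate 2 of KO BMP-off was the lowest library for *EPN1* (70.7 CPM, against 97.6 and 124 in replicates 1 and 3) and *AP2A1* (42.7 CPM, against 57.2 and 71.4) as well. With the GC correction the members' median was 0.00 (−0.0041).

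With BMP-on, the comparison on which the set was selected, 0 of the 9 members other than *EPN3* were called, and edgeR called 3.67% of all genes. None of the 9 passed with DESeq2 either. An unadjusted p under 0.05 was found for 2 of them (*AP2B1* and *AP2M1*) and for 2372 of all 17188 genes tested. *EPN3*, on which the set was selected, was over the threshold, which is a description. When a log2 fold change of 1 or more in either direction was required in addition, 0 of the 9 and 0.140% of all genes remained. The 9 members lay between −0.11 (*AP2B1*, adjusted p = 0.28) and 0.11 (*AP2A1*, adjusted p = 0.836). *AP2M1* was at 0.11 ± 0.05 (adjusted p = 0.27), and its KO libraries (1143, 1178 and 1086 CPM) lay above its WT libraries (1041, 1066 and 1045 CPM). *AP2B1* showed the opposite order, with 319, 325 and 313 CPM in KO and 342, 356 and 333 CPM in WT. By limma-voom with quantile normalization *AP2M1* was called in this comparison (0.14, adjusted p = 0.0263).

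The response to BMP was read from BMP-on against BMP-off, where *ID1*, a direct BMP target, rose by 0.94 on the log2 scale in WT cells (edgeR adjusted p = 0.000273) and by 1.08 in KO cells (adjusted p = 1.87e-05). The 2 BMP responses share no library.

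In WT cells, *AP2M1* was the 1 member called, where edgeR called 3.92% of all genes. Its libraries had 931, 917 and 939 CPM with BMP-off and 1041, 1066 and 1045 CPM with BMP-on, without overlap. It rose by 0.18 ± 0.05 on the log2 scale (1.13-fold, adjusted p = 0.042). The call was lost in 9 of 12 fits that left out 1 library, with log2 values from 0.17 to 0.18 and adjusted p from 0.00699 to 0.169. The adjusted p was 0.0891 with a replicate block. At the threshold of 1 on the log2 scale no member remained, against 0.425% of all genes. *EPN1* (0.19, adjusted p = 0.647) and *EPN2* (0.09, adjusted p = 0.618) did not pass the test although their WT groups did not overlap, with *EPN1* at 99.8, 114 and 122 CPM before and 124, 131 and 127 CPM after BMP, and *EPN2* at 72.8, 75.3 and 78.8 CPM before and 79.3, 80.9 and 81.4 CPM after it. The heavy chain *CLTC* was at 0.02 with a 95% interval from −0.08 to 0.12, and *CLTA* at 0.01 with an interval from −0.09 to 0.11.

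In KO cells, 3 of the 9 members other than *EPN3* were called, where edgeR called 22.0% of all genes (11.1% higher and 10.9% lower). *AP2M1* and *EPN2* were higher and *AP2B1* was lower with BMP-on. With the threshold of 1 on the log2 scale 0 of the 9 and 1.66% of all genes remained. The median over the 10 members was 0.25, against 0.01 over all genes, and with the GC correction 0.03 against −0.03.

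*AP2M1* had 948, 844 and 946 CPM in KO BMP-off and 1143, 1178 and 1086 CPM in KO BMP-on libraries, with no overlap. It rose by 0.32 ± 0.05 on the log2 scale (1.24-fold, adjusted p = 0.000137), and the call was kept in 12 of 12 fits without 1 library and with the GC correction (0.25, adjusted p = 4.52e-06). When the correction used the GC content of the canonical transcript, chosen after seeing the data, the rise was 0.18 (adjusted p = 0.000246). *AP2B1*, whose protein pairs with the mu subunit in the same complex, fell. It had 364, 372 and 364 CPM in KO BMP-off and 319, 325 and 313 CPM in KO BMP-on libraries, again with no overlap. It decreased by 0.20 ± 0.05 on the log2 scale (0.871-fold, adjusted p = 0.00471) and was called in 12 of 12 fits without 1 library and with the GC correction (−0.19, adjusted p = 0.000767). Subunits of AP-2 thus moved in opposite directions on this scale.

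*EPN2* had 69.5, 60.2 and 77.0 CPM in KO BMP-off and 85.8, 75.1 and 81.2 CPM in KO BMP-on libraries. The groups overlapped, since BMP-off replicate 3 exceeded BMP-on replicate 2. *EPN2* rose by 0.23 ± 0.07 on the log2 scale (1.17-fold, adjusted p = 0.0352). The call held in 7 of 12 fits without 1 library (adjusted p from 0.00245 to 0.156) and was lost with the GC correction (0.13, adjusted p = 0.0571). When the correction used the GC content of the canonical transcript, chosen after seeing the data, *EPN2* was called (0.14, adjusted p = 0.0431). Without KO BMP-off replicates 2 and 3, an alternative chosen after seeing the data, *EPN2* was at 0.21. That fit leaves 1 library in the KO BMP-off group, so only the effect size is given.

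*EPN1*, *AP2A1* and *CLTB* had the largest estimates that did not pass the test in KO cells, at 0.45 ± 0.16 (adjusted p = 0.0725), 0.41 ± 0.15 (adjusted p = 0.0832) and 0.27 ± 0.14 (adjusted p = 0.188). The GC correction left *EPN1* at 0.38 (adjusted p = 0.0919), moved *AP2A1* to 0.08 (adjusted p = 0.278) and moved *CLTB* to −0.09 (adjusted p = 0.356). Without KO BMP-off replicates 2 and 3, the alternative chosen after seeing the data, *EPN1* was at 0.44 (adjusted p = 0.0033) and *AP2A1* at 0.40 (adjusted p = 0.0107), and both were called. The longest transcripts of *EPN1*, *AP2A1* and *CLTB* contain 53.0%, 62.0% and 62.7% GC. *DNM2*, with 60.6% GC, was at 0.13 ± 0.06 (adjusted p = 0.138), and the GC correction turned its direction to −0.18 ± 0.05 (adjusted p = 0.00734). Its libraries had 174, 156 and 182 CPM in KO BMP-off and 197, 189 and 173 CPM in KO BMP-on. DESeq2 called *EPN1* (adjusted p = 0.0458) and *AP2A1* (adjusted p = 0.0134) in this comparison. The clathrin chains *CLTC* (−0.08, 95% interval −0.18 to 0.02) and *CLTA* (0.03, interval −0.07 to 0.13) differed by less than the test could separate from 0.

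**Figure D3:**
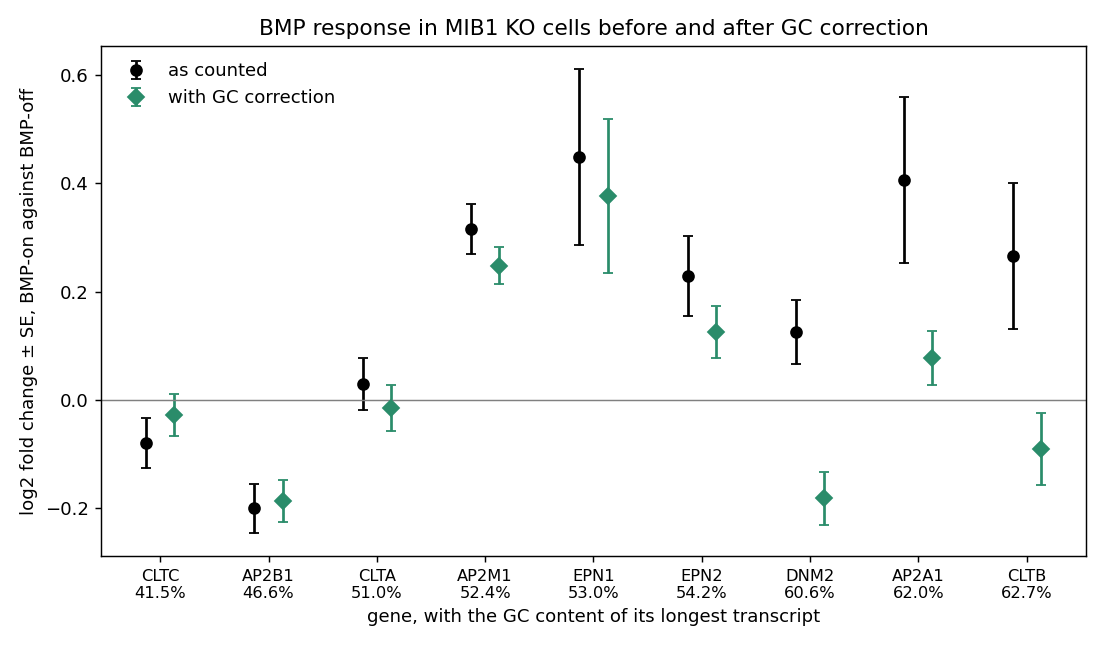
Log2 fold change ± SE of BMP-on against BMP-off in KO cells for 9 members, ordered by the GC content of the longest transcript, as counted (circles) and with GC correction (diamonds). *AP2B1* stayed near its value and *AP2M1* moved from 0.32 to 0.25. *AP2A1*, *CLTB* and *DNM2*, with at least 60.6% GC, moved down further.

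With the GC correction, 3 of the 9 members other than *EPN3* were called in KO cells, against 24.9% of all genes, with *AP2M1* higher and *AP2B1* and *DNM2* lower. *AP2M1* and *AP2B1* were thus called in the same direction with and without the correction.

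Whether the BMP response differed between KO and WT cells was tested by the interaction, and no member was called, where edgeR called 0.0931% of all genes. None of the 9 members tested had an unadjusted p under 0.05, and 1819 of all 17188 genes had one. DESeq2 and limma-voom called no member. *AP2M1* had the lowest adjusted p (difference of responses 0.14 ± 0.07 on the log2 scale, 95% interval 0.00 to 0.28, unadjusted p = 0.0513, adjusted p = 0.472). For *AP2B1* the difference was −0.10 ± 0.06 (adjusted p = 0.56) and for *EPN2* 0.14 ± 0.10 (adjusted p = 0.623). The calls of *AP2B1* and *EPN2* in KO and not in WT cells therefore do not show a different response.

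**Figure D4:**
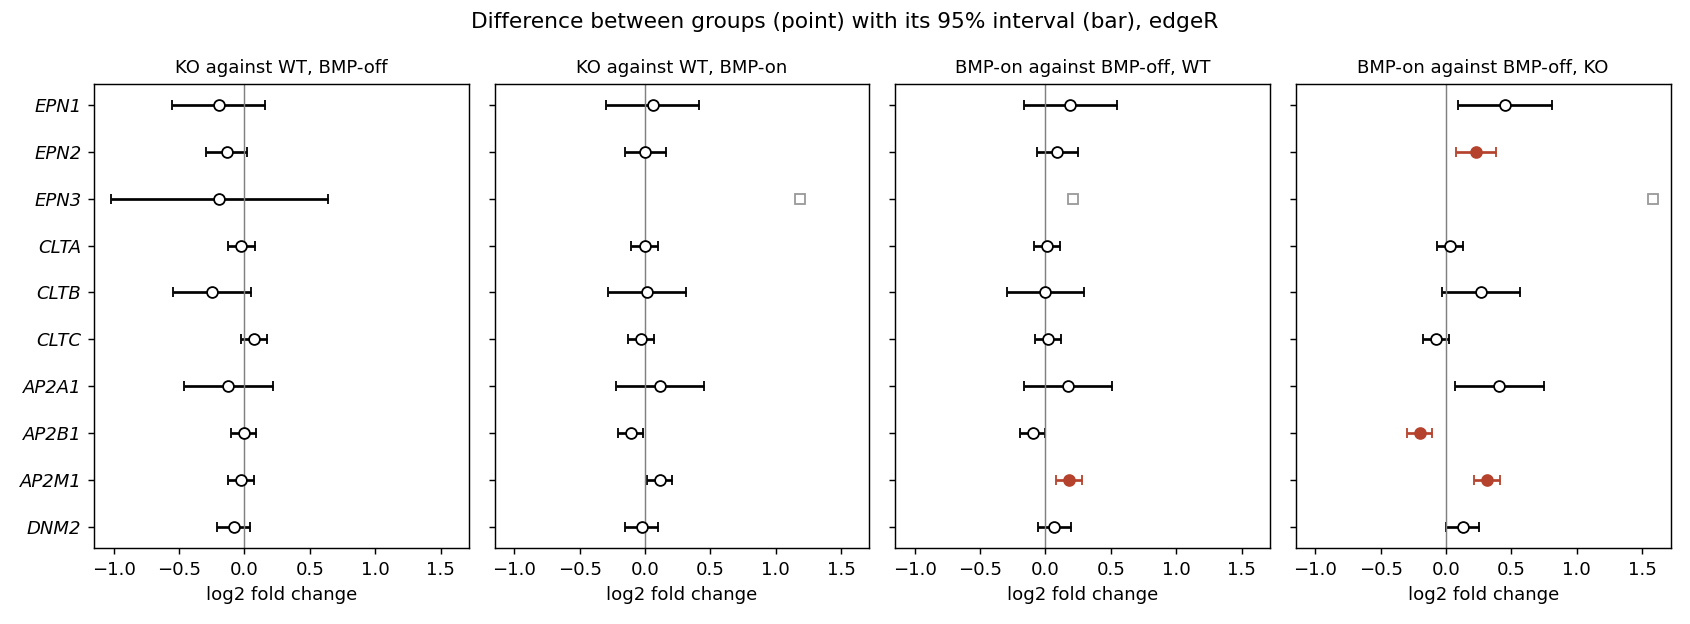
Log2 fold change (points) with its 95% interval (bars) for the 10 members in 4 comparisons, with filled points for an adjusted p of at most 0.05. Grey squares give *EPN3* where it is a description without a test. *AP2M1* is filled in both BMP responses, *EPN2* and *AP2B1* in KO cells.

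Windows of 250 bases upstream of the RefSeq gene starts (GRCh38.p14) were read for 9 of the members. GGCGCC, a palindrome bound by SMAD1 and SMAD5, and CAGAC, an element bound by SMAD4, were searched on both strands, and no 2 matches of the different motifs overlapped. GGCGCC was found for 2 of the 9 (*EPN1* and *CLTB*) and in 16.4% of 35116 windows, and CAGAC for 3 of the 9 (*EPN2*, *CLTA* and *AP2B1*) and in 38.0% of windows. Members were counted by gene, also *CLTB* with more than 1 window, whereas the percentages count windows, so the units differ. These matches are descriptions of letters in a window. The 2 windows shown belong to members called higher in KO cells with BMP-on, without bases that lie in an annotated exon, in lower case with CAGAC matches in capitals (as GTCTG on the reverse strand). The window of *AP2M1* (chr3:184174605-184174688, plus strand) holds neither motif, and that of *EPN2* (chr17:19237126-19237365, plus strand) holds 1 CAGAC. The window of *AP2B1* lies wholly within an annotated exon and is not shown.
AP2M1: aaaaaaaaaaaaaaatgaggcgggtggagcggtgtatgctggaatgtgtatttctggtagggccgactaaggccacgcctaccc
EPN2: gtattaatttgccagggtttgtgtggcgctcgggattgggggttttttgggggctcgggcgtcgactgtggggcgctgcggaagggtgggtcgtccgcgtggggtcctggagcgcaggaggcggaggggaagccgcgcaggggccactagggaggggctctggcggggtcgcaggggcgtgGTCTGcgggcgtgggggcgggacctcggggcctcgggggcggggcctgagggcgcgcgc

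The windows contain 60.4% GC for *AP2M1*, 74.0% for *EPN2* and 52.0% for *AP2B1*, against a median of 58.0% over all windows. *AP2M1* lies on chromosome 3 from 184174689 to 184184214, *AP2B1* on chromosome 17 from 35578046 to 35726413 and *EPN2* on chromosome 17 from 19215615 to 19336715, all on the plus strand (GENCODE v44). No other coding gene or long noncoding RNA overlaps *AP2M1*, while *EPN2-AS1* and *B9D1* overlap *EPN2* on the other strand. Whether counting used the strand is not given in the sources used here, so reads of *EPN2* and these genes may be shared.

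Other genes of the pathway were taken from 8 lists of 100 genes, of which 92 were tested. By edgeR, none of the 92 was called in KO against WT with BMP-off or in the interaction (0.0407% and 0.0931% of all genes). An unadjusted p under 0.05 was found for 14 and 12 of them, and for 1757 and 1819 of all 17188 genes. DESeq2 called 1 and limma-voom 0 in each of these comparisons. With the GC correction edgeR called *HIP1* in the first and *CAV1* in the second. In KO against WT with BMP-on 4 were called (2 higher and 2 lower, 4.35% against 3.67% of all genes), in the BMP response of WT cells 3 (2 higher and 1 lower, 3.26% against 3.92%) and in that of KO cells 29 (15 higher and 14 lower, 31.5% against 22.0%). The comparison of KO with WT with BMP-on and the BMP response of KO cells share the KO BMP-on libraries.

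In the list of the remaining AP-2, clathrin and dynamin genes, 1 of 5 was called. It was called in the BMP response of KO cells (22.0% of all genes) and in KO against WT with BMP-on (3.67%). *CLTCL1*, the second clathrin heavy chain, fell by 0.34 ± 0.07 on the log2 scale with BMP in KO cells (16.6 ± 0.535 to 13.1 ± 0.410 CPM, SD, n = 3, adjusted p = 0.00285) and with BMP-on it was lower in KO than in WT cells (−0.29 ± 0.07, adjusted p = 0.0334). The list's median in KO cells was 0.18.

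Of 18 cargo adaptors tested, 4 were higher and 2 lower with BMP in KO cells, against 11.1% and 10.9% of all genes, with a median of −0.04. The GC correction gave 5 higher and 4 lower, against 9.48% of all genes called higher and 24.9% called in either direction. *STON1*, a stonin that interacts with AP-2, rose by 0.54 ± 0.14 (4.61 to 6.64 CPM, adjusted p = 0.0102) and *NUMBL*, a relative of the Notch regulator NUMB, by 0.44 ± 0.11 (44.4 to 60.0 CPM, adjusted p = 0.0107), and with the GC correction *NUMBL* was at 0.16 (adjusted p = 0.015). The beta-arrestin *ARRB2* fell by 0.19 ± 0.06 (adjusted p = 0.0412) and the EH-domain protein *REPS1* by 0.19 ± 0.06 (adjusted p = 0.0387). With the GC correction *ARRB2* was at −0.38 (adjusted p = 3.35e-06) and *REPS1* at −0.13 (adjusted p = 0.0808), no longer called. In WT cells *PICALM*, which recruits clathrin and SNARE proteins, was the 1 call (0.15 ± 0.04, 254 ± 6.95 to 282 ± 4.28 CPM, adjusted p = 0.043).

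Of 13 genes of pit initiation, membrane bending and the actin link, *HIP1*, which links clathrin to actin, was higher in KO cells when KO and WT were compared with BMP-on (0.46 ± 0.09, 12.5 ± 1.10 CPM in WT and 17.1 ± 1.69 CPM in KO, adjusted p = 0.00685). With BMP-off its difference was about as large (0.45 ± 0.09, 11.7 ± 0.715 CPM in WT and 15.96 ± 0.297 CPM in KO) and was not called (adjusted p = 0.133), but was called with the GC correction (0.48, adjusted p = 0.007). In KO cells with BMP, the endophilin *SH3GL1* rose by 0.61 ± 0.16 (adjusted p = 0.022) and *FCHO2*, which acts at the start of a pit, fell by 0.19 ± 0.05 (adjusted p = 0.0198). With the GC correction *SH3GL1* was at 0.21 (adjusted p = 0.00164) and *FCHO2* at −0.10 (adjusted p = 0.117). The list's median was 0.14.

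Of 12 pit kinases, phosphoinositide enzymes and uncoating factors, *DNAJC6* (auxilin, which recruits the uncoating ATPase) rose by 0.33 ± 0.05 with BMP in KO cells (46.4 ± 1.5 to 58.4 ± 0.995 CPM, adjusted p = 0.000217). With BMP-on it was higher in KO than in WT cells as well (0.28 ± 0.05, adjusted p = 0.00388). *GAK*, the broadly expressed auxilin, rose by 0.39 ± 0.11 in KO cells (adjusted p = 0.0229), but was at 0.07 with the GC correction (adjusted p = 0.285). *BMP2K*, a kinase related to AAK1, fell by 0.32 ± 0.08 (adjusted p = 0.00825) and the phosphatase *OCRL* by 0.16 ± 0.05 (adjusted p = 0.045). The phosphatase *SYNJ2* rose by 0.21 ± 0.05 in WT cells (adjusted p = 0.0385). The list's median in KO cells was −0.03.

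Of 19 genes of ubiquitin sorting at endosomes, 6 were higher and none lower with BMP in KO cells. Of all genes 11.1% were called higher and 10.9% lower, and the list's median was 0.13. *TOM1*, an adaptor that binds ubiquitin and clathrin, rose by 0.69 ± 0.10 (25.4 ± 4.39 to 41.1 ± 1.49 CPM, adjusted p = 0.000136) and its partner *TOLLIP* by 0.54 ± 0.12 (15.3 ± 3.17 to 22.4 ± 1.36 CPM, adjusted p = 0.00363). With the GC correction 4 were higher and 2 lower with a median of 0.02. Of all genes 9.48% were then called higher and 24.9% in either direction. *TOM1* (0.41, adjusted p = 2.61e-06) and *TOLLIP* (0.35, adjusted p = 0.00166) were still called.

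Of 13 early endosome genes, 2 were higher and 4 lower with BMP in KO cells, against 11.1% and 10.9% of all genes, with a median of −0.07. The GC correction gave 2 higher and 2 lower, against 9.48% of all genes called higher and 24.9% called in either direction. The adaptors *APPL2* (−0.29 ± 0.06, adjusted p = 0.00389) and *APPL1* (−0.25 ± 0.05, adjusted p = 0.00211) fell, and both were called with the GC correction too. *RAB5C*, a GTPase of early endosomes, rose by 0.22 ± 0.06 (adjusted p = 0.0164), and was at 0.07 with the GC correction (adjusted p = 0.2). *RAB7A*, a GTPase of late endosomes, rose by 0.15 ± 0.04 (adjusted p = 0.0221).

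Among 5 caveolar genes tested, *CAV1*, the main coat protein of caveolae, fell with BMP in WT cells from 253 ± 6.11 to 199 ± 2.91 CPM (−0.35 ± 0.04, adjusted p = 5.79e-05) and in KO cells from 239 ± 6.19 to 159 ± 1.37 CPM (−0.59 ± 0.04, adjusted p = 5.58e-08). With BMP-on it was lower in KO than in WT cells (−0.32 ± 0.04, adjusted p = 0.000248). The difference of its responses was −0.24 ± 0.06 (interaction, adjusted p = 0.0946), and −0.20 with the GC correction (adjusted p = 0.0352). *CAV2* fell by 0.20 ± 0.06 in KO cells (adjusted p = 0.0217), and was at −0.11 with the GC correction (adjusted p = 0.0924). Of the 5, 2 were called lower in KO cells, against 10.9% of all genes. With the GC correction 4 were called lower, against 24.9% of all genes called in either direction. The list's median in KO cells was −0.03, and −0.33 with the GC correction.

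Of 7 receptors tested that enter cells by endocytosis, 2 were lower in KO cells with BMP-on, against 10.9% of all genes. The list's median was −0.08. The transferrin receptor *TFRC* fell from 1705 ± 94.4 to 1405 ± 50.4 CPM (−0.28 ± 0.05, adjusted p = 0.000349) and *EGFR* from 113 ± 1.93 to 86.8 ± 5.24 CPM (−0.39 ± 0.09, adjusted p = 0.00695).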

How the data were processed

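The authors removed reads of ribosomal RNA, used GSNAP to align the remainder to GRCh38, and counted reads on exons with HTSeqGenie. The deposited counts are whole numbers without normalization, and the deposited RPKM values are per gene length and scaled to library size. Columns were matched to samples by their labels, and 0 were left out. Symbols came from GENCODE v44 (57532 identifiers).

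Genes were tested with edgeR 4.0.16 in R 4.3.3, with TMM scaling, the default low-count filter (17188 genes) and a quasi-likelihood fit over all 12 libraries. The common dispersion was 0.00434. The GC correction was an offset from a loess trend per library (span 0.4) on the longest transcript. Alternatives used DESeq2 1.42.0, limma 3.58.1, other scalings and filters, log2(RPKM + 1) and log2(RPKM + 0.1). Replicates of a group differed by more than counting noise. In simulated data for KO against WT with BMP-off, 173 of 196 genes changed 2-fold were called, and 94 of 198 genes changed 1.3-fold. The simulation gave every gene the common dispersion and no GC trend between libraries. These shares therefore do not measure how often such changes would be called in the real libraries.

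The members, lists and tests were chosen with earlier results of these data known. Named genes are all members and, per list and comparison, up to 2 called genes with the highest and 2 with the lowest log2 fold change and a mean of at least 50 counts, besides the 5 genes most like *EPN3*.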

Additional observations from a re-analysis of the deposited data

How the results depend on the processing

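Of 1334 log2 fold changes of members recomputed under alternatives, 3 reversed, all for *DNM2* in the BMP response of KO cells, which was −0.18 with the GC correction, −0.18 with the replicate block and GC correction together, and −0.20 with the GC content of the canonical transcript (chosen after seeing the data). A further 25 lost and 11 gained a call, not counting *EPN3* where it is described without a test. These counts include the fit without KO BMP-off replicates 2 and 3, which leaves 1 library in that group and measures no spread within it. With BMP-on *EPN3* was over the threshold in 6 of 12 fits that left out 1 library.

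In KO against WT with BMP-on, the comparison that selected the set, the count of members called, *EPN3* included (1 as reported), was 0 with DESeq2, with at least 10 counts in every library (which leaves *EPN3* untested), with the replicate block and with the 3 RPKM settings (pseudocount 1, pseudocount 0.1, and pseudocount 1 without a filter), and 2 with limma-voom. In the BMP response of WT cells it was 0 with the replicate block, with the same 3 RPKM settings and with the log2 threshold of 1. In that of KO cells, where it was 4 with *EPN3*, it was 1 with the log2 threshold and 5 with the GC content of the canonical transcript. There *EPN1* and *AP2A1* were also called with DESeq2 and with at least 10 counts in every library. *EPN2* was not called with only the groups compared or with the 3 RPKM settings. Leaving out 1 library gave 0 to 1 members with BMP-on, 0 to 1 in WT cells and 3 to 8 in KO cells, the 8 without KO BMP-off replicate 3. The share of all genes called in these fits is not given here, so the counts are not read as results about the members. The causes were not tested. With BMP-off and in the interaction the count was 0 in all alternatives run.

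The replicate numbers did not pair libraries (2 of 18 same-number pairs correlated above 0.1), and under the replicate block the count in KO cells was 4, as without it. No scaling moved the median of all genes by more than 0.1. Low counts limit the precision for *EPN3*.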
